A study of Homo sapiens with 12 samples.

Results

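The dual-specificity MAP kinase phosphatases were followed as a family of 10 genes (DUSP1, DUSP2, DUSP3, DUSP4, DUSP5, DUSP6, DUSP7, DUSP8, DUSP10 and DUSP16), chosen by name. Each of the 10 had 1 array row that carried its symbol alone, out of 18417 genes with such a row. The arrays came from HEL and UKE1, 2 established human leukemia lines. Both carry JAK2V617F, an activating change in the kinase JAK2, so all samples share it. Cells were left untreated for 6 h or given 250 nM ITF2357 (givinostat, an inhibitor of histone deacetylases) for 6 h, with 3 Affymetrix Gene 1.0 ST arrays in each of the 4 groups. UKE1 medium held horse serum and hydrocortisone in both conditions, and HEL medium held neither, so line and medium cannot be told apart. The design text calls the triplicates independent; where they were not separate cultures, the p-values measure only the spread between these samples.

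MAP kinases (ERK, JNK and p38) are switched on by phosphorylation of a threonine and a tyrosine, and these phosphatases switch them off by removing both phosphates. Many of the genes are themselves induced by MAP kinase signalling, which makes them negative feedback regulators. DUSP1, DUSP2, DUSP4 and DUSP5 encode nuclear enzymes that are induced by stimuli, DUSP6 and DUSP7 encode cytoplasmic enzymes that act on ERK, and DUSP8, DUSP10 and DUSP16 encode enzymes that prefer JNK and p38. DUSP3 encodes a small atypical member without the MAP kinase-binding domain of the others. JAK2 signalling feeds into the ERK pathway, and ERK activity is the usual inducer of DUSP5 and DUSP6.

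ITF2357 raised DUSP1, DUSP5 and DUSP10 in both lines, by 1.62-fold to 2.03-fold. DUSP3 went in opposite directions: it rose by 0.49 in HEL and fell by 0.48 in UKE1 on the log2 scale. DUSP4 and DUSP6 rose in HEL and were not called in UKE1, DUSP2 and DUSP7 fell in HEL and were not called in UKE1, and DUSP16 rose in UKE1 and was not called in HEL. DUSP8 was not called in either line. A gene is said to have risen or fallen where its adjusted p was under 0.05 in a limma fit over the 12 arrays. The adjustment was Benjamini-Hochberg across the 18417 genes. Adjusted p-values below come from that fit unless another fit, scaling, or set of arrays or genes is named.

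In HEL 6 of the 10 genes rose and 2 fell, where 22.6% of all genes rose and 19.9% fell (42.4% called in either direction). In UKE1 4 rose and 1 fell, where 22% rose and 22.3% fell (44.3% called). The median log2 change of the 10 was 0.54 in HEL and 0.16 in UKE1, and that of all genes was -0.013 and 0.011. The median size of the change regardless of sign was 0.62 and 0.36 for the family, against 0.17 and 0.18 for all genes. The 3 treated arrays lay wholly apart from the 3 untreated ones for 9 of the 10 in HEL and 7 in UKE1, where 49% and 53.9% of all genes did so. With quantile normalization or median centring of the arrays, HEL had 6 that rose and 1 that fell, DUSP7 no longer being called. The shares of all genes called in HEL were then 42.4% and 41.9%. With genes of a mean level under 6 left out, 7 of 9 members were called in HEL and 5 of 9 in UKE1, where 60.8% and 62.2% of the 12210 genes kept were called, so in UKE1 the family's share lay above that of all genes without this filter and below it with it.

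**Figure D1:**
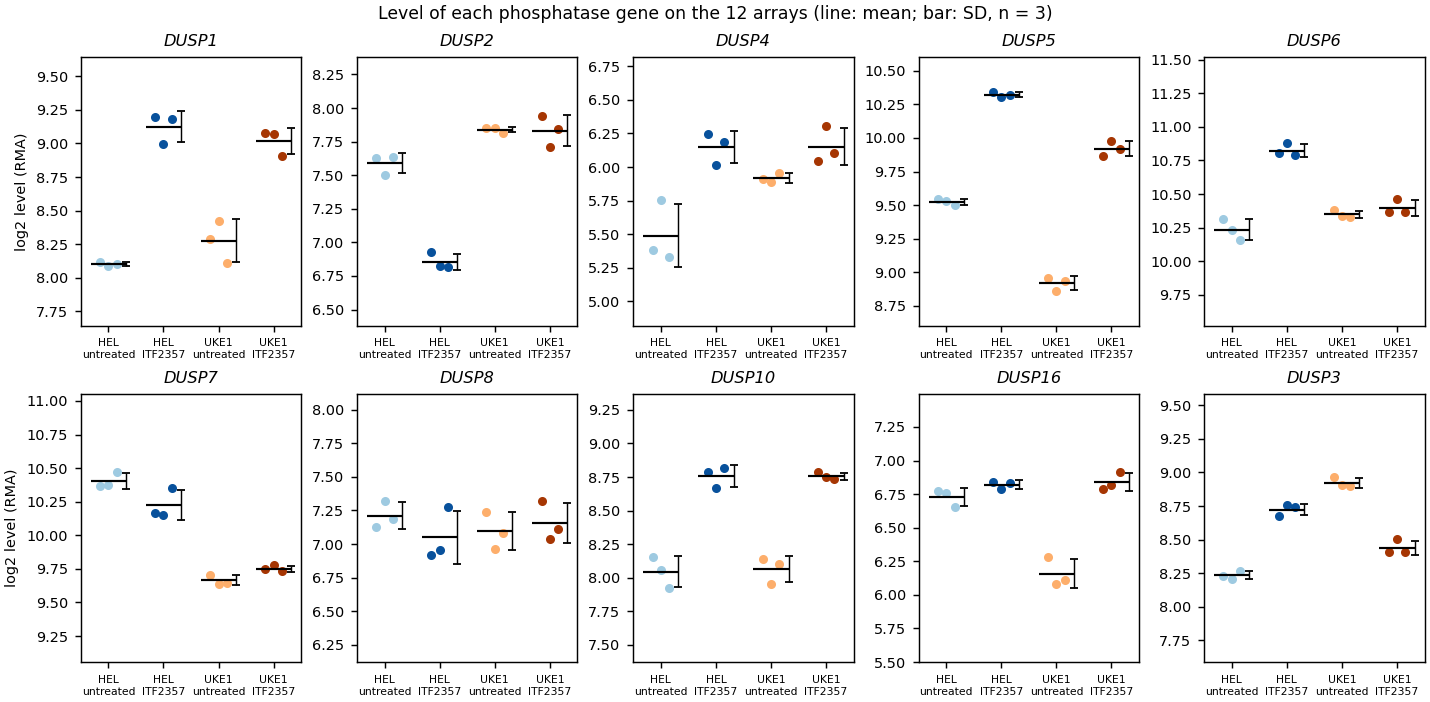
Log2 level of the 10 phosphatase genes on each of the 12 arrays, with the mean and SD (n = 3) of each group; every panel spans the same number of log2 units. DUSP5 has 4 separate groups between 8.92 and 10.32, DUSP3 is lowest in untreated HEL and highest in untreated UKE1, and the groups of DUSP8 overlap.

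The 250 bases before the annotated start of 4 members are shown here because their genes took different courses: DUSP1 and DUSP10 rose in both lines, DUSP3 moved in opposite directions, and DUSP8 was not called. They come from RefSeq, build GRCh38.p14, and all 4 lie on the minus strand: DUSP1 at chr5:172771196-172771445, DUSP10 (the first of its 2 listed starts) at chr1:221742090-221742339, DUSP3 at chr17:43778978-43779227 and DUSP8 at chr11:1572272-1572521. Capitals mark matches on either strand to TGACGTCA (the cyclic AMP response element, CRE), GGGCGG (the GC box) and TATAAA (the TATA box).
DUSP1: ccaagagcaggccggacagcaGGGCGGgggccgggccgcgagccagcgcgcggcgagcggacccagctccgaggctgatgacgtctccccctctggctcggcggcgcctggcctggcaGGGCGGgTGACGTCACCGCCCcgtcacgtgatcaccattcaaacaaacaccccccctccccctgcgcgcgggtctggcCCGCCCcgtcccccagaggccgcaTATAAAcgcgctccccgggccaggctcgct
DUSP10: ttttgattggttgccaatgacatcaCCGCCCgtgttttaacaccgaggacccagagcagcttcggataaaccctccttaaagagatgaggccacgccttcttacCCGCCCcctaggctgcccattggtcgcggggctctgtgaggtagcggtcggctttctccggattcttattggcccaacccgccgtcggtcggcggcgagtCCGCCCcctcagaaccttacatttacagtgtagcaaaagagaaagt
DUSP3: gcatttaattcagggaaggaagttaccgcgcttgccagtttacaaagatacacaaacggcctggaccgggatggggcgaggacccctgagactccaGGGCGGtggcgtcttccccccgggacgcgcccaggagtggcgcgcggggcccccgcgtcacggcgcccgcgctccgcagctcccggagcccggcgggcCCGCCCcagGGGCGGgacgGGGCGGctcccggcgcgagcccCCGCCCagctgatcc
DUSP8: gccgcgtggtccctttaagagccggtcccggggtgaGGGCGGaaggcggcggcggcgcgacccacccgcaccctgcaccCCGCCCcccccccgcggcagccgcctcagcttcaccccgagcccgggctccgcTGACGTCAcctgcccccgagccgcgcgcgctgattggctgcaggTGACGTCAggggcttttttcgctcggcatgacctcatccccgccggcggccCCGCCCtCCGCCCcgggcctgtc

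The search covered 300 bases, 250 before and 50 after the start, of the 8 members with a promoter entry; DUSP4 and DUSP5 had none. The CRE was found in 2 of the 8, once in DUSP1, at position -125 from the start, and at 2 places in DUSP8 (-118 and -74), and it occurs in 1.85% of all 35116 windows of this length. The GC box was found in 7 of the 8 (45% of all windows), DUSP6 being the exception, and the TATA box in DUSP1 alone (11.5% of all windows). DUSP10 had 2 windows, and both held a GC box. The GC content of the member windows ran from 55% (DUSP10) to 78.3% (DUSP8), against a median of 58.7% over all windows. Whether the GC content has a part in these matches was not tested. TGANTCA (AP-1, 7.71% of all windows) and CCGGAA (an ETS core, 17.2%) were found in none of the 8. In these 8 genes no match of one motif overlapped a match of another. A match is a description of the letters, and the gene with 2 CRE matches, DUSP8, was not called in any comparison.

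DUSP1, the phosphatase that dephosphorylates all 3 kinds of MAP kinase, stood at log2 levels of 8.12, 8.09 and 8.10 on the untreated HEL arrays and at 9.20, 8.99 and 9.18 with ITF2357. In UKE1 it stood at 8.29, 8.43 and 8.11 untreated and at 9.08, 9.07 and 8.91 treated. The treated arrays were above all untreated arrays in both lines, and the lines overlapped within each condition. The rise was 2.03-fold in HEL (log2 change 1.02 ± 0.085, SE; adjusted p = 3.5e-07) and 1.67-fold in UKE1 (0.74 ± 0.085; adjusted p = 6.35e-06). The UKE1 response was smaller by 0.28 on the log2 scale, with a 95% interval for the difference of UKE1 minus HEL from -0.54 to -0.02 and an adjusted p = 0.114. Without untreated UKE1 replicate 3, the lowest of its group, the difference was -0.36 and was called (adjusted p = 0.0369). Intervals here and below are those of a single gene, not adjusted for the number of genes.

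DUSP5, which dephosphorylates ERK in the nucleus, had the widest spread of group means in the family, 1.40 log2 units. Untreated HEL arrays read 9.55, 9.53 and 9.50 and treated ones 10.34, 10.31 and 10.32. UKE1 arrays read 8.96, 8.86 and 8.93 untreated and 9.87, 9.98 and 9.92 treated. None of the 4 groups overlapped: untreated UKE1 was lowest, followed by untreated HEL, treated UKE1 and treated HEL. DUSP5 rose 1.74-fold in HEL (adjusted p = 8.19e-08) and 2.00-fold in UKE1 (adjusted p = 9.22e-09). The difference between the responses was 0.21 ± 0.079 (SE; adjusted p = 0.0783; 95% interval 0.035 to 0.38), and it was called after quantile normalization (0.28, adjusted p = 0.0165) and with genes of a mean level under 6 left out (0.21, adjusted p = 0.0474).

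The processed pseudogene DUSP5P1 has a sequence close to that of DUSP5, so part of either signal can come from the other transcript. Its 2 rows stood at means of 5.30 and 5.29 in untreated HEL, 6.28 and 6.71 in treated HEL, 4.90 and 5.01 in untreated UKE1 and 5.24 and 5.92 in treated UKE1. In a limma fit over all 33297 rows they rose in HEL by 0.98 and 1.42 (adjusted p = 0.00085 and 0.000193). In UKE1 the change was 0.34 for the first row (adjusted p = 0.163) and the second rose by 0.91 (adjusted p = 0.00406). How far the rows share signal was not tested.

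DUSP2, a nuclear phosphatase first known from activated blood cells, fell in HEL and was not called in UKE1. Its HEL arrays read 7.63, 7.50 and 7.64 untreated and 6.93, 6.83 and 6.82 treated, a fall of 0.73 on the log2 scale (1.66-fold; adjusted p = 1.09e-06). In UKE1 they read 7.85, 7.85 and 7.82 untreated and 7.94, 7.71 and 7.84 treated, and these groups overlapped. The UKE1 change was -0.007 (95% interval -0.16 to 0.14; adjusted p = 0.952). The responses of the lines differed by 0.73 ± 0.098 (SE; adjusted p = 0.000134).

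DUSP4, a nuclear relative of DUSP1, read 5.38, 5.76 and 5.33 in untreated HEL and 6.24, 6.01 and 6.18 with ITF2357. In UKE1 it read 5.91, 5.89 and 5.95 untreated and 6.05, 6.31 and 6.10 treated. Treated arrays were above untreated arrays in both lines, with 1 untreated HEL array (replicate 2) well above the other two. The rise in HEL was 1.58-fold (log2 change 0.66 ± 0.11, SE; adjusted p = 0.000167). In UKE1 the change was 0.23 ± 0.11 and was not called (adjusted p = 0.0956), and neither was the difference between the responses (-0.42; adjusted p = 0.0594). Without untreated HEL replicate 2 the UKE1 change (adjusted p = 0.0315) and the difference (-0.56, adjusted p = 0.00578) were both called. The difference was also called after quantile normalization (adjusted p = 0.0267), after median centring (0.0258), and without treated HEL replicate 2 (0.043) or treated UKE1 replicate 2 (0.0363), and the UKE1 change with the UKE1 arrays alone (0.0357). A filter at a mean log2 level of 6 removes DUSP4 from the test.

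DUSP6, a cytoplasmic ERK phosphatase, rose in HEL alone among the calls. Its HEL arrays read 10.31, 10.24 and 10.16 untreated and 10.81, 10.88 and 10.79 treated, a rise of 0.59 on the log2 scale (adjusted p = 2.66e-06). UKE1 arrays read 10.38, 10.34 and 10.33 untreated and 10.36, 10.47 and 10.36 treated, with overlapping groups. The UKE1 change was 0.049 (95% interval -0.083 to 0.18; adjusted p = 0.575), and the responses differed by -0.54 ± 0.086 (SE; adjusted p = 0.000498). Treated HEL was the group that stood above the other 3.

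DUSP7, the close relative of DUSP6, read 10.37, 10.38 and 10.47 in untreated HEL and 10.17, 10.15 and 10.35 in treated HEL. The fall of 0.18 on the log2 scale was just past the threshold (1.14-fold; adjusted p = 0.0365). It was no longer called after quantile normalization (adjusted p = 0.0589), after median centring (0.0762), with the HEL arrays alone (0.0992), or without untreated HEL replicate 2 or 3 or treated HEL replicate 1 or 2 (0.0549, 0.121, 0.127 and 0.131). UKE1 arrays read 9.71, 9.64 and 9.65 untreated and 9.75, 9.78 and 9.73 treated; this change of 0.087 was not called (adjusted p = 0.321). The difference between the responses was 0.27 (adjusted p = 0.0488). Median centring (0.135) and the replicate block (0.0544) ended that call, and leaving out any array but treated HEL replicate 3 ended it too, with an adjusted p of 0.0538 to 0.111. DUSP7 was set apart by line rather than by drug: all 6 HEL arrays were above all 6 UKE1 arrays.

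DUSP10, which acts on JNK and p38, showed the closest match of the lines. HEL arrays read 8.15, 8.06 and 7.92 untreated and 8.79, 8.67 and 8.82 treated. UKE1 arrays read 8.14, 7.95 and 8.10 untreated and 8.79, 8.75 and 8.73 treated. The untreated groups overlapped each other, as did the treated groups, and no treated array reached down to an untreated one. The rise was 1.64-fold in HEL (adjusted p = 2.64e-06) and 1.62-fold in UKE1 (adjusted p = 3.18e-06), and the responses differed by -0.02, with a 95% interval from -0.24 to 0.21 (adjusted p = 0.921).

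DUSP16, a JNK phosphatase that shuttles between nucleus and cytoplasm, read 6.77, 6.76 and 6.65 in untreated HEL and 6.84, 6.79 and 6.83 in treated HEL. These groups were apart by little, and the change of 0.094 was not called (95% interval -0.053 to 0.24; adjusted p = 0.309). In UKE1 the arrays went from 6.28, 6.08 and 6.11 to 6.79, 6.82 and 6.91. This 1.60-fold rise (adjusted p = 1.76e-06) brought the treated UKE1 arrays to levels that overlapped the treated HEL arrays, with 1 above all of them. The responses differed by 0.59 ± 0.096 (SE; adjusted p = 0.000609).

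DUSP8, the third JNK and p38 phosphatase, read 7.13, 7.32 and 7.19 in untreated HEL, 6.92, 6.96 and 7.28 in treated HEL, 7.24, 6.96 and 7.08 in untreated UKE1 and 7.32, 7.04 and 7.11 in treated UKE1. All neighbouring groups overlapped, and the group means spanned 0.16 log2 units. The change was -0.16 in HEL (95% interval -0.39 to 0.07; adjusted p = 0.264) and 0.064 in UKE1 (-0.17 to 0.29; adjusted p = 0.684). Without treated HEL replicate 3 the HEL change was -0.27 (adjusted p = 0.0488).

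DUSP3, the small atypical phosphatase, had the largest difference between the responses in the family. HEL arrays went from 8.23, 8.21 and 8.27 to 8.68, 8.76 and 8.74, and UKE1 arrays went from 8.96, 8.91 and 8.90 to 8.41, 8.50 and 8.41. No group overlapped another, and the order was untreated HEL, treated UKE1, treated HEL and untreated UKE1. DUSP3 rose by 0.49 ± 0.056 in HEL (SE; adjusted p = 6.95e-06) and fell by 0.48 in UKE1 (adjusted p = 7.22e-06). The difference between the responses was -0.97 ± 0.08 (SE; adjusted p = 2.04e-06), and both changes and the difference were called in each alternative setting run.

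**Figure D2:**
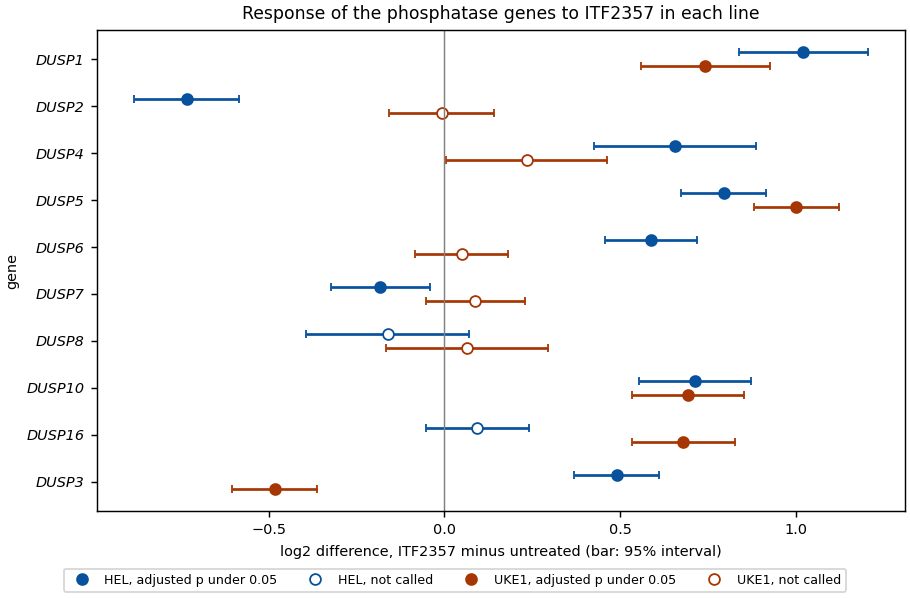
Log2 change with ITF2357 (horizontal axis) of the 10 phosphatase genes (vertical axis) in HEL and UKE1, with unadjusted 95% intervals; filled points had an adjusted p under 0.05. DUSP1, DUSP5 and DUSP10 are to the right of 0 in both lines, and DUSP3 lies at 0.49 in HEL and -0.48 in UKE1.

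The difference between the responses was called for 5 of the 10 genes, 3 with a more positive change in UKE1 (DUSP2, DUSP7 and DUSP16) and 2 with a more negative one (DUSP3 and DUSP6), where 23.9% of all genes were called, 10.1% positive and 13.8% negative. This split depended on the scaling. It was 4 positive and 3 negative after quantile normalization (24.6% of all genes called) and 2 and 3 after median centring (24.3%). With the replicate block it was 2 and 2 (21.2%). Untreated UKE1 differed from untreated HEL in 6 of the 10, where 67.7% of all genes did, 33.3% higher and 34.4% lower: DUSP2 (0.25), DUSP3 (0.69) and DUSP4 (0.43) were higher in UKE1 and DUSP5 (-0.61), DUSP7 (-0.74) and DUSP16 (-0.57) were lower, all as log2 differences. Both scalings gave 5 higher and 3 lower, where 68.2% of all genes were called, with DUSP1 (adjusted p = 0.0435 and 0.0397) and DUSP6 (0.000529 and 0.0438) added on the higher side. Without untreated UKE1 replicate 3, DUSP1 was likewise called (0.26, adjusted p = 0.0169). Treated UKE1 differed from treated HEL in 5 of the 10, where 68% of all genes did, 34% higher and 34% lower: DUSP2 was higher by 0.98, and DUSP3 (-0.28), DUSP5 (-0.40), DUSP6 (-0.43) and DUSP7 (-0.47) were lower. The arrays of the lines lay wholly apart for 7 of the 10 untreated and 5 of the 10 treated, where 69.4% and 72.3% of all genes did so.

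The course of the line difference varied by gene. DUSP16 went from -0.57 untreated to 0.017 with ITF2357 (95% interval -0.13 to 0.16) and DUSP4 from 0.43 to 0.006 (-0.23 to 0.24), though the change of the latter was not called. DUSP3 changed sign, from 0.69 to -0.28. DUSP2 moved apart, from 0.25 to 0.98. DUSP6 also changed sign, from 0.11, which was not called (adjusted p = 0.115), to -0.43. After quantile normalization both of its values were called, at 0.28 (adjusted p = 0.000529) and -0.26 (adjusted p = 0.00108). These pairs of values are built from the same 12 arrays as the responses above and are another view of them.

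**Figure D3:**
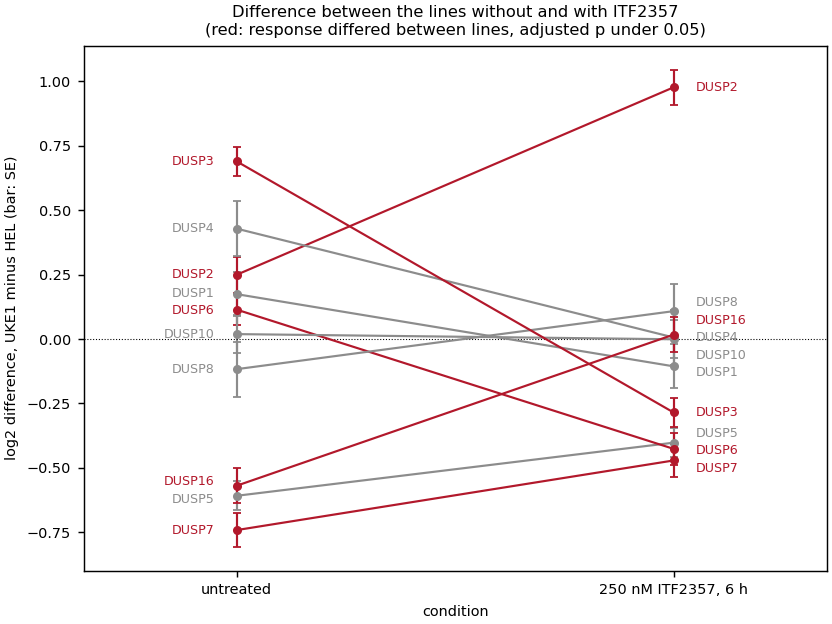
Log2 difference UKE1 minus HEL (vertical axis, bars are SE) of each phosphatase gene without drug and with 250 nM ITF2357 for 6 h (horizontal axis); red genes had responses that differed between the lines at an adjusted p under 0.05. DUSP2 moves up from 0.25 to 0.98, DUSP3 crosses 0 downwards, and DUSP16 reaches 0.017.

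The pattern over the 4 group means, each gene centred on its own mean, was compared between all genes by Euclidean distance for the 3 members with the widest range. The nearest of 18417 genes lie far below the median distance because they were picked as nearest, so the distances only describe. Nearest to DUSP5 were TSC22D3 (distance 0.061 log2 units), DNAAF3 (0.094) and PPP2R5B (0.11), against a median distance of 1.15 over all genes. TSC22D3 changed by 0.83 in HEL and 0.93 in UKE1 and stood 0.56 lower in untreated UKE1 than in untreated HEL. Nearest to DUSP1 were BBS7 (0.048), MGST3 (0.067) and TNKS1BP1 (0.072; median of all genes 1.02), and nearest to DUSP2 were SNORA33 (0.096), TAS2R4 (0.14) and NFX1 (0.14; median 0.917).

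Of 14 other dual-specificity phosphatase genes measured, 3 rose and 2 fell in HEL (42.4% of all genes called) and 2 rose and 5 fell in UKE1 (44.3%), with median log2 changes of -0.018 and -0.07. DUSP18 (0.56 and 0.43) and STYX (0.54 and 0.41), a pseudophosphatase, rose in both lines, and DUSP14 rose in HEL (0.43; -0.049 in UKE1, adjusted p = 0.665). DUSP19, which acts in JNK signalling, fell by 1.08 in UKE1 (adjusted p = 1.07e-06), where its change in HEL was 0.10 (adjusted p = 0.486). DUSP9, the other classical MAP kinase phosphatase, is named here outside the rule for gene names: its change was -0.088 in HEL and 0.078 in UKE1 (adjusted p = 0.402 and 0.458).

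Among the MAP kinases that these enzymes act on, 4 of 11 measured rose and 0 fell in HEL (22.6% and 19.9% of all genes). In UKE1 5 rose and 1 fell (22% and 22.3%). Called as risen in both lines were 4, and the share of all genes for this was not computed. MAPK8, which encodes JNK1, rose by 0.63 in HEL and 1.12 in UKE1, and the difference of 0.50 was called (adjusted p = 0.00949). MAPK9, another JNK gene, rose by 0.43 and 0.37, and MAPK3, which encodes ERK1, by 0.48 in HEL and 0.18 in UKE1 (adjusted p = 0.0308). MAPK12, a p38 gene, fell by 0.55 in UKE1, and its change in HEL was -0.081 (adjusted p = 0.433). Of 20 upstream kinases measured, 12 rose and 3 fell in HEL and 9 rose and 8 fell in UKE1, beside the same shares of all genes (22.6% and 19.9% in HEL, 22% and 22.3% in UKE1). MAP2K1, the ERK kinase MEK1, rose by 1.31 and 1.07, MAP3K3, which activates several MAP kinase branches, rose by 1.40 and 0.92, and ARAF, a RAF kinase, fell by 0.94 and 0.98 in HEL and UKE1.

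Genes known to be induced by ERK signalling did not share 1 direction. Of 15 measured, 7 rose and 1 fell in HEL (42.4% of all genes called), and 5 rose and 5 fell in UKE1 (44.3%); 4 rose in both lines. ETV5, an ETS transcription factor, rose by 1.10 in HEL and 0.56 in UKE1. SPRED2, an inhibitor of the RAF step, rose by 0.87 in HEL and FOSL1, an AP-1 subunit, fell by 0.53 there; in UKE1 their changes were -0.046 and -0.15 (adjusted p = 0.652 and 0.0798). In UKE1 the cyclin CCND1 fell by 0.85, the feedback inhibitor SPRY2 by 0.80 and SPRED1, a relative of SPRED2, by 0.65. In HEL the changes of CCND1 and SPRY2 were 0.14 and -0.066 (adjusted p = 0.12 and 0.565). Among the genes that rose in UKE1 were also IER3 (0.76) and SPRY1 (0.63), named here outside the rule for gene names and after their values were seen. SPRED1 rose by 0.26 in HEL, so it moved in opposite directions as DUSP3 did, and its responses differed by -0.91 (adjusted p = 1.18e-05). In this list 2 of the 15 genes, SPRED1 among them, were called in opposite directions, as were 3 of the 20 upstream kinases. No share of all genes was computed for calls in both lines, so the counts of shared and opposite calls only describe these lists.

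**Figure D4:**
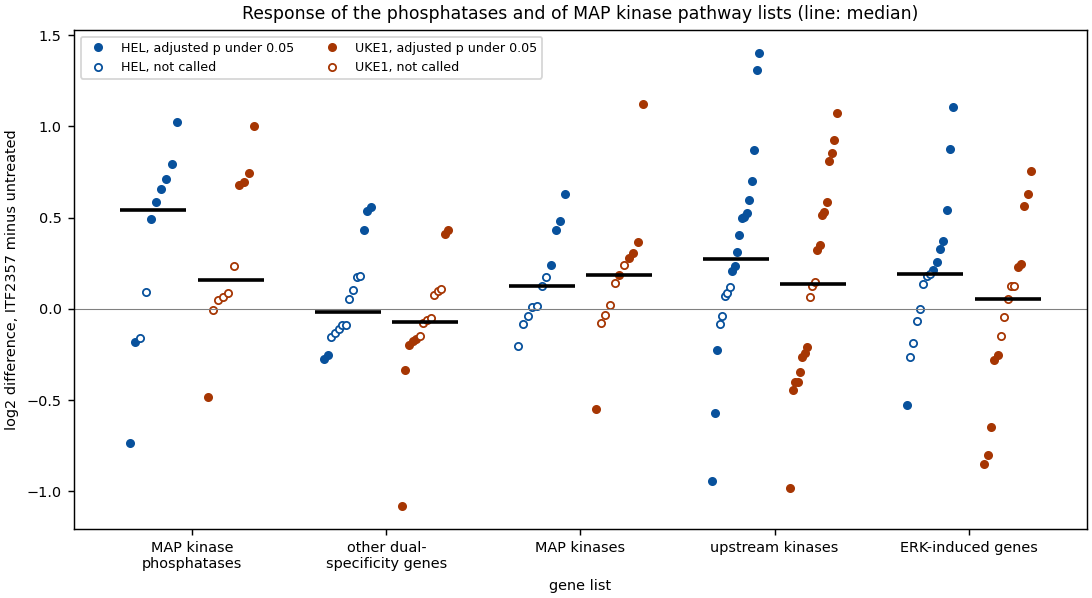
Log2 change with ITF2357 (vertical axis) of each gene in the phosphatase family and in 4 other lists (horizontal axis), HEL in blue and UKE1 in orange-brown; filled points had an adjusted p under 0.05 and lines are list medians. The median of the phosphatases is 0.54 in HEL and 0.16 in UKE1, and that of the other dual-specificity genes is -0.018 and -0.07.

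Arrays of the same group correlated at r = 0.996 to 0.998 over genes, and array medians lay between 6.41 and 6.50. For 7 measured erythroid and megakaryocyte markers group means ran from 7.83 to 12.08 in untreated HEL and from 5.96 to 10.73 in untreated UKE1. All 7 were lower in untreated UKE1, as were 34.4% of all genes. Of 10 measured markers of other cell types, 6 were higher and 1 lower in untreated UKE1. Over all genes 33.3% were higher and 34.4% lower (67.7% called), so the number called was near the share of all genes. CD3D, a chain of the CD3 complex of T cells, stood at 4.30 in untreated HEL and 9.15 in untreated UKE1. With ITF2357, 4 of the 7 erythroid and megakaryocyte genes fell in each line (19.9% of all genes in HEL, 22.3% in UKE1). The summed linear signal of the 7 went from a range of 8895 to 9281 to one of 7117 to 7542 in HEL. In UKE1 it went from a range of 3114 to 3336 to one of 2320 to 2400. The summed signal of the other markers went from 1432 to 1544 to 1227 to 1375 in HEL and from 4285 to 4420 to 3210 to 3279 in UKE1. This sum follows its highest genes more than the list as a whole. KRT18 was the highest in every group, with a mean of 9.94 in untreated HEL and 10.90 in untreated UKE1. CDH5 stood at 10.09 in untreated and 8.60 in treated UKE1. Whether these shifts have a part in the phosphatase values was not tested, and fewer cells of a kind and less RNA per cell cannot be told apart on such arrays.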

How the data were processed

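The authors deposited 1 table of log2 expression values for 12 arrays, made with Affymetrix Expression Console and RMA per the submitters' processing notes; their versions were not given in the sources used here. That the scale is log2 is read from the range of 1.26 to 14.36. The number of arrays limits the precision, and the table has no detection flags. Of 33297 rows, 19460 had 1 gene symbol in GEO's platform annotation, 1754 several and 12083 none listed; for each gene the single-symbol row with the highest mean was kept, with no filter on low values.

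Group means were estimated in limma 3.58.1 (R 4.3.3; lmFit, eBayes; 8 residual degrees of freedom; two-sided) for all 18417 genes at once, giving 5 comparisons. It was tested on simulated data. Labels give no batch. Promoter letters were searched with Python 3.11.15.

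The members and lists were chosen with earlier results of these data known. Named beside the 10 members were up to 3 called genes per list and drug comparison, taken by smallest adjusted p, and the 3 nearest patterns. Alternatives were 2 scalings, the mean of a gene's rows, a minimum mean of 6, fewer groups, a replicate block, and leaving out each array.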

Additional observations from a re-analysis of the deposited data

Results flagged for a closer look

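The response to ITF2357 differed between the lines in 5 of the 10 phosphatase genes, where 23.9% of all genes were called. The test was the limma test of the difference itself (UKE1 minus HEL). With the replicate block 4 were called, beside 21.2% of all genes. DUSP3 differed by -0.97 (95% interval -1.15 to -0.80), and all 3 treated arrays of each line lay beyond the untreated ones, upwards in HEL and downwards in UKE1. DUSP2 differed by 0.73 (0.52 to 0.94), with a fall in HEL and overlapping groups in UKE1. DUSP16 differed by 0.59 (0.38 to 0.79), with a rise called in UKE1 alone. DUSP6 differed by -0.54 (-0.72 to -0.35), with a rise called in HEL alone. DUSP7 differed by 0.27 (0.071 to 0.47), which is close to the threshold at an adjusted p = 0.0488 and was not called with the replicate block or on leaving out any array other than treated HEL replicate 3. Groups of 3 arrays were too small for a search for single outlying samples.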

How the results depend on the processing

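All 89 counts of called phosphatase genes that were recomputed stayed within 1.5 times the reported count; leaving out 1 array at a time gave 7 to 9 in HEL, 5 to 6 in UKE1, 4 to 5 for the difference between responses, 6 to 7 between untreated lines and 5 to 5 between treated lines. Of 285 single-gene values under the other alternatives, 265 kept direction and side of the threshold, 5 lost the call, 9 gained it and 6 changed sign. Of 600 with 1 array left out the numbers were 563, 15, 7 and 15. The losses were all of DUSP7. No value that was called changed sign, and no changed sign was called. The sign changes were DUSP2 in UKE1 (0.033), DUSP10 between responses (0.067), and DUSP1 (0.002), DUSP4 (-0.009) and DUSP10 (0.11) between treated lines after quantile normalization, and DUSP4 (-0.004) between treated lines after median centring. With 1 array left out, DUSP2 in UKE1 ran from -0.063 to 0.053, DUSP8 in UKE1 from -0.018 to 0.14, DUSP10 from -0.075 to 0.042 between responses, from -0.042 to 0.074 between untreated lines and from -0.045 to 0.03 between treated lines, DUSP4 from -0.072 to 0.059 and DUSP16 from -0.02 to 0.043 between treated lines. The cause was not tested.

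Replicate numbers were compared for pairing by deviations from the group means. Such deviations cancel out within a group, which ties the correlations to each other, so they cannot show that pairing is absent. In HEL deviations of same-numbered arrays correlated at -0.088 to 0.065, inside the range of the other pairs (-0.139 to 0.095). In UKE1 same-numbered arrays correlated at 0.03 to 0.035 and the other pairs at -0.031 to -0.003. Each UKE1 array thus correlated best with its own number, and the positive values of these pairs make those of the others negative on balance. Whether this reflects a weak pairing was not tested. With the replicate block the counts were 8 in HEL, 5 in UKE1 and 4 for the difference, DUSP7 (0.27, adjusted p = 0.0544) being lost. A block across lines, added after the data were seen, left 6 and 5 between lines (67.6% and 67.9% of all genes). Over all genes the block within a line gave 7590, 7896 and 3899 calls, against 7816, 8160 and 4395 without it.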
